A study of Homo sapiens with 7 samples.

Results

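Histone genes that are switched on with DNA replication lie side by side in clusters, and 74 of the 19126 protein-coding genes on chromosomes 1 to 22 belonged to them or to their close relatives by name. The genes were chosen by symbol (H1-, H2AC, H2BC, H3C or H4C), after counts of peaks near them in these same lists were known, so the counts given here are a description and carry no test. The chromosome 6 cluster held 55 of them, the chromosome 1 cluster 11, and 8 lay elsewhere. By protein they were 10 linker histone H1, 17 H2A, 19 H2B, 13 H3 and 15 H4 genes. The rule also took in linker histone genes that are not replication-dependent, among them H1-10, the testis gene H1-7 and the oocyte gene H1-8, all outside the clusters.

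A nucleosome wraps DNA around pairs of H2A, H2B, H3 and H4, and H1 binds the linker between nucleosomes. Most genes in the clusters have no introns and give mRNAs that end in a stem-loop instead of a poly(A) tail. The coactivator NPAT, a target of cyclin E and CDK2, switches them on at the start of DNA synthesis, and the stem-loop binding protein SLBP carries their mRNAs through processing.

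PPARα is a nuclear receptor that senses fatty acids. Its binding was mapped in HepG2, an established human hepatocellular carcinoma line, by sequencing the DNA precipitated with an anti-PPARα antibody. The PPARα+ERα group carried expression vectors for PPARα and the estrogen receptor ERα and received the ERα agonist PPT (10 nM, 45 min) and then the PPARα agonist Wy14643, once written Wy13643 in the labels (10 µM, 2 h), from 48 h after transfection. The PPARα+ERβ group carried vectors for PPARα and ERβ and received the ERβ agonist DPN (10 nM, 45 min) and then Wy14643 at the same dose and time. The PPARα group carried the PPARα vector alone and received Wy14643. All groups thus overexpressed PPARα from a plasmid in a tumour line, each had 2 libraries, and the labels do not say whether these came from separate cultures. Peak lists hold no expression, so the cell line was not checked against marker genes. A no-antibody sample was not analysed here.

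The 6 lists held between 17486 and 36398 peaks. A peak was near a gene if its summit, the highest point, lay at most 3 kb from the start or the end. Overlapping peaks of any libraries made up 1 region, called occupied in a group if the 2 libraries of that group each had a near peak there. The fold is the enrichment that the authors deposited for each summit, relative to the background around it, and it ranks peaks within 1 list only. The local background is given as a multiple of the genome-wide level of the same library. With 2 libraries a group, an exact two-sided permutation test could not go below p = 0.333, and none was run.

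In all, 38 peaks fell in 18 regions, near 23 of the 74 histone genes (31.1%), beside 35.0% of all protein-coding genes, and 51 histone genes had no near peak in any library. Shares of genes, here and below, are not like for like. Histone genes are short and close together (median span 495.5 bp, beside 24476.5 bp for all protein-coding genes). Their near windows made up 0.348 Mb for 74 genes, beside 189.35 Mb for 19126. The regions numbered 14 on chromosome 6 and 1 in the chromosome 1 cluster, and 3 lay elsewhere. Of the 18, 10 were seen in a single library (55.6%), beside 59.0% of all near regions, and 8 were occupied in at least 1 group. Neighbours shared peaks, since 7 regions were near 2 histone genes each.

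**Figure D1:**
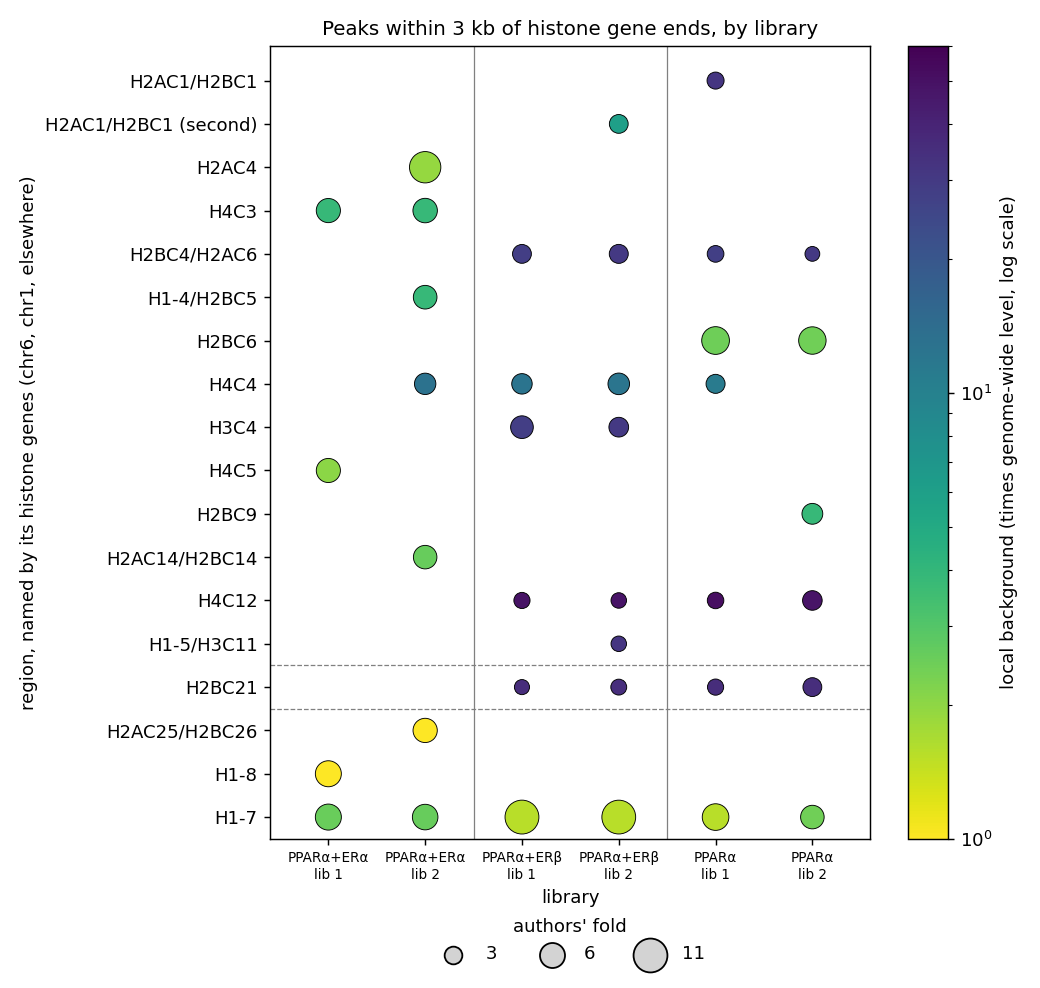
Each circle is a peak near a histone gene in 1 library (columns); rows are the 18 regions, with dashed lines between the chromosome 6 cluster, the chromosome 1 cluster and other places. Circle area follows the authors' fold, which compares peaks only within a column, and colour the local background on a log scale. H1-7 is the row filled in all 6 libraries, and the darkest circles, at H4C12, have no counterpart in the PPARα+ERα columns.

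By library, near peaks numbered 4 and 7 for PPARα+ERα, 6 and 8 for PPARα+ERβ, and 7 and 6 with PPARα. The means were 5.5 ± 2.12 peaks for PPARα+ERα, 7.0 ± 1.41 for PPARα+ERβ and 6.5 ± 0.707 for PPARα (SD, n = 2 each), and the ranges of the 3 groups overlapped. Per megabase of near window, this was 11.5 and 20.1 summits with PPARα+ERα, 17.2 and 22.99 with PPARα+ERβ, and 20.1 and 17.2 with PPARα. Over the windows of all protein-coding genes the densities were 10.4 and 12.1 for PPARα+ERα, 7.76 and 10.7 for PPARα+ERβ, and 8.75 and 14.5 for PPARα. The histone density was the higher value in each of the 6 libraries, which shared several of the same sites and so are not separate observations. The exact Poisson 95% interval of each histone count, which covers counting error only, reached from 3.13 to 29.4 per megabase in PPARα+ERα library 1 and from 9.92 to 45.3 in PPARα+ERβ library 2. In each of the 6 libraries the density over all protein-coding genes lay inside this interval.

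Occupied regions numbered 2 with PPARα+ERα, 6 with PPARα+ERβ and 5 with PPARα. As shares of the 18 histone regions these were 11.1, 33.3 and 27.8%, beside 11.1, 12.1 and 17.1% of the 7259 regions near any protein-coding gene. Genes with such a region numbered 2, 7 and 6, or 2.70, 9.46 and 8.11% of the 74, beside 4.71, 5.06 and 7.1% of all protein-coding genes. The PPARα+ERα share of genes was the lowest of the 3. The counts rest on few sites. Without 1 library of a group, here and below, a peak in the other was enough for a call, so such counts could not fall. PPARα+ERα then had 7 occupied regions and 10 genes without its library 1, and 4 of each without its library 2. PPARα+ERβ had 11 genes without its library 1. With peaks of low local background alone (up to 3 times the genome-wide level), 1, 1 and 2 regions were left. This limit takes out most peaks of the whole PPARα+ERβ and PPARα lists. Shares of all near regions under it were not counted, here and below, so the drop is not read as a trait of histone genes.

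**Figure D2:**
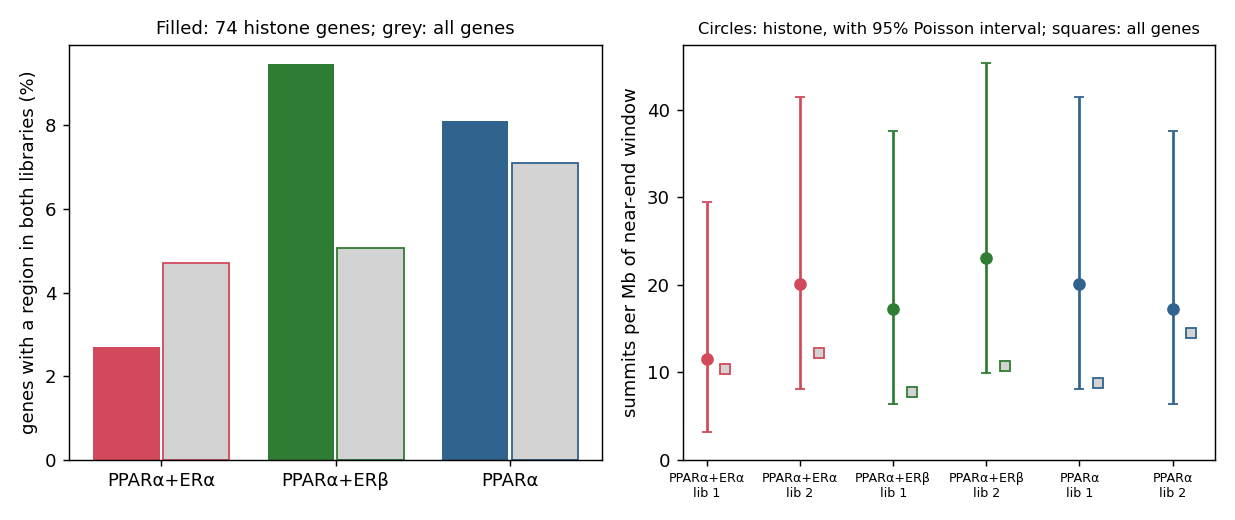
Left, the percentage of genes with a region in both libraries of a group, for the 74 histone genes (filled) and all protein-coding genes (grey). Right, summits per megabase of near window in each library, for histone genes (circles, with exact Poisson 95% intervals) and all genes (squares). Each circle lies above its square, and each square lies within the interval of its circle.

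By type, near peaks in any library touched 4 of 10 H1 genes, 5 of 17 H2A, 8 of 19 H2B, 2 of 13 H3 and 4 of 15 H4. Occupied regions lay near 1 H1 and 1 H4 gene with PPARα+ERα. With PPARα+ERβ they lay near 1 H1, 1 H2A, 2 H2B, 1 H3 and 2 H4 genes, and with PPARα near 1 H1, 1 H2A, 3 H2B and 1 H4 gene.

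Among genes of the chromosome 6 cluster with a listed start, H4C4 had the peaks closest to it. This gene encodes histone H4, a core histone, and its region (chr6:26189050-26189460) had peaks in PPARα+ERα library 2 (fold 4.38), both PPARα+ERβ libraries (fold 4.01 and 4.46) and PPARα library 1 (fold 3.47). It was therefore occupied with PPARα+ERβ alone, and PPARα+ERα library 1 and PPARα library 2 had none. The summit lay 225 bases before the listed start in 3 of the 4 and 191 bases before it in PPARα library 1. H4C4 was the one histone promoter that any peak overlapped, of 67 listed, where the promoter window runs from 250 bases before the start to 50 after it. In a single library 0 or 1 of the 67 was overlapped, beside between 0.331 and 0.603% of all 15101 promoters listed. The H4C4 peaks held between 25 and 42 fragments, on a background between 11.04 and 12.85 times the genome-wide level. The peaks covered 250 bases of the H4C4 window in PPARα+ERα library 2, 260 and 300 in the PPARα+ERβ libraries and 228 in PPARα library 1.

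The H4C4 promoter is shown since peaks lay on it, and those of H4C12, another H4 gene, and H2BC6, an H2B gene, for comparison, as both had occupied regions beyond their promoters. Sequences are from RefSeq (GRCh38.p14), at chr6:26189063-26189362 on the minus strand, chr6:27831511-27831810 on the minus strand and chr6:26183511-26183810 on the plus strand, each running 5′ to 3′ along its gene. Capitals mark GGTCC (core of an H4 promoter element), TATAAA (the letters of a TATA box), CCAAT (the letters that NF-Y binds) and ATTTGCAT (the H2B octamer, bound by OCT1).
H4C4: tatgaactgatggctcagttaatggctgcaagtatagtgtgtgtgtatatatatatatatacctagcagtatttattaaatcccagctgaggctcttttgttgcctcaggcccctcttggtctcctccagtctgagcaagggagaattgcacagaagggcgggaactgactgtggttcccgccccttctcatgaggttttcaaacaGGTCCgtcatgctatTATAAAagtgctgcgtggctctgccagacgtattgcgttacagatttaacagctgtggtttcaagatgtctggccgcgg
H4C12: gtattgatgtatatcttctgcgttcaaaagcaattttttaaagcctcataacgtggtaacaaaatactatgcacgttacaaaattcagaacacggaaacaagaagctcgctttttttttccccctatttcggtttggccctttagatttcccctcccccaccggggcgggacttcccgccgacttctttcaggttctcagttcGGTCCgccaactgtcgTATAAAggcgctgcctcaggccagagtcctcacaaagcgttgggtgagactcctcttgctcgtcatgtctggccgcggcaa
H2BC6: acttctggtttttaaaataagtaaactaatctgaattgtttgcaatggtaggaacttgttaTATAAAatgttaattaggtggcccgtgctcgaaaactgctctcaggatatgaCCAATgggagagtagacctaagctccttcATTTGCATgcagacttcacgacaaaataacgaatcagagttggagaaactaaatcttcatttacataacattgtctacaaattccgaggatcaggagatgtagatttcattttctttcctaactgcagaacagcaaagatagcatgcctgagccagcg

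H4C4 and H4C12 share the same arrangement, with GGTCC at -44 and -47 and TATAAA at -29 and -31 relative to the start. The H4C4 summits lay upstream of both elements. In H2BC6 the octamer stood at -108, CCAAT at -137 and TATAAA at -189, upstream of both and not where a TATA box usually lies.

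Each motif was looked for on both strands of the 67 histone promoters listed and of all 15101. GGTCC was in 12 of 13 H4 promoters but in 34.3% of the 67 histone promoters, beside 51.0% of all promoters. CCAAT was in 16 of 16 H2A, 18 of 18 H2B and 11 of 11 H3 promoters but in 3 of 13 H4, beside 35.7% of all. TATAAA was in 65.7% of histone promoters and 10.0% of all. ATTTGCAT was in 14 of 18 H2B and 11 of 16 H2A promoters and in no H1, H3 or H4 promoter, beside 1.7% of all. Of those 11 H2A windows, 8 overlap an H2B window, so the same octamer is counted for both genes there. AAACACA, the H1 box, was in 7 of 9 H1 promoters and 4.23% of all. None of these 5 motifs contains another.

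The hexamer AGGTCA, which nuclear receptors bind singly or in pairs, was about as frequent in histone promoters as elsewhere. It was in 8 of 67 histone promoters (11.9%), beside 11.8% of all. Its exact direct repeat with 1 base between, an arrangement that PPARα binds with RXR, was in 0 of 67 and in 4 of all 15101. Its exact inverted repeat with 3 bases between, the arrangement of an estrogen response element, was in 0 of both. With so few exact matches in all promoters, 0 of 67 cannot show a lack of such elements. None of the 3 promoters printed holds AGGTCA. A match or its lack describes these windows only, and most peaks lay outside them.

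H4C12 stood on the highest local background of the histone genes. Its region (chr6:27831926-27832459) had no peak in either PPARα+ERα library, fold 2.51 and 2.31 in the PPARα+ERβ libraries and fold 2.62 and 3.68 in the PPARα libraries. The summits lay 812 and 814 bases before the start with PPARα+ERβ, and 802 and 814 with PPARα. They held 74 and 81 fragments with PPARα+ERβ and 81 and 123 with PPARα, over a background 49.5 and 48.7 times the genome-wide level with PPARα+ERβ and 51.5 and 48.3 times with PPARα. A low fold here therefore came with many fragments.

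The region near H2BC4 and H2AC6, genes for H2B and H2A, had peaks in the same 4 libraries (chr6:26122057-26122478). It had no PPARα+ERα peak, fold 3.40 and 3.45 with PPARα+ERβ, and fold 2.67 and 2.10 with PPARα. It lay inside the span of H2BC4 and 1970 to 1996 bases before the start of H2AC6, on a background between 28.2 and 30.4 times the genome-wide level. Ranked by -log10 q within its own list, it stood at percentiles 80.2 and 88.4 with PPARα+ERβ, and at 32.2 and 5.72 with PPARα.

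Other occupied regions of the cluster belonged to 1 group each. H4C3, an H4 gene, had peaks with PPARα+ERα alone (chr6:26103843-26104205), of fold 5.59 and 5.73 from 13 and 14 fragments. Both summits stood at the same base inside the gene, 63 bases from one end. H3C4, a gene for H3, had peaks with PPARα+ERβ alone (chr6:26195587-26195915), of fold 4.93 and 3.72 from 86 and 83 fragments. They ranked at percentiles 98.9 and 93.1 of their lists, the highest of any PPARα+ERβ histone peak, and also lay near the H1 pseudogene H1-12P. H2BC6 had peaks with PPARα alone (chr6:26181806-26182327), of fold 7.37 and 7.21 from 17 and 18 fragments, 1592 and 1593 bases before its start. The H2BC6 background was 2.45 and 2.41 times the genome-wide level, in contrast to 28.4 and 30.4 times at H3C4.

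The other 8 regions of the cluster had a peak in 1 library. With PPARα+ERα they were near H2AC4 (fold 9.42, percentile 93.8 of its list), H1-4 and H2BC5, and H2AC14 and H2BC14 in library 2, and near H4C5 in library 1. With PPARα+ERβ they were near H2AC1 and H2BC1, the testis pair at one end of the cluster, and near H1-5 and H3C11, all in library 2. With PPARα they were near H2AC1 and H2BC1 at a second site in library 1 and near H2BC9 in library 2.

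The cluster falls into 3 blocks of histone genes with other genes between them. The first block, with 34 histone genes, held 9 and 10 summits at any distance with PPARα+ERα, 6 and 8 with PPARα+ERβ, and 6 and 8 with PPARα. The second, with H2BC11, H2AC11, H2BC12, H4C9 and H2AC12, held 0 in all libraries. The third, with 16 genes, held 1 and 2 for PPARα+ERα, 3 and 4 for PPARα+ERβ, and 1 in each PPARα library. Over the whole 2.168 Mb span the density was 11.1 and 14.8 summits per megabase with PPARα+ERα, 11.1 and 13.8 with PPARα+ERβ, and 11.1 and 12.9 with PPARα, beside 10.1 and 11.4, 6.78 and 8.62, then 9.04 and 12.9 along all of chromosome 6. The span also holds 98 tRNA genes. Of these, 31 had a near peak in some library, in 20 regions, and none of those regions was a histone region. No share for tRNA genes elsewhere stands beside this count, so nothing particular to the span is read from it.

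On chromosome 1, 1 of the 11 clustered genes had a near peak. H2BC21, an H2B gene, had a region 1541 to 1543 bases past its end (chr1:149882534-149883020), with no PPARα+ERα peak, fold 2.18 and 2.42 with PPARα+ERβ and fold 2.51 and 3.40 with PPARα. Its background was 35.9 and 35.3 times the genome-wide level with PPARα+ERβ, and 35.6 and 35.0 times with PPARα. H2BC18, H3C13, H4C14, H3C14, H2AC18, H4C15, H2AC19, H3C15, H2AC20 and H2AC21 had none. Some of these are near copies, since the promoters of H4C14 and H4C15 are the same at 300 of 300 bases, those of H2AC18 and H2AC19 share a run of 299 bases and those of H3C14 and H3C15 one of 296. How the authors treated reads that match both copies is not given in the sources used here, so a lack of peaks at these genes cannot be read as a lack of signal.

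Outside the clusters, H1-7 was the one histone gene with peaks in all 6 libraries, and its region (chr12:48327538-48328086) was 1 of 16 such regions near protein-coding genes (0.22% of all near regions). H1-7 encodes a linker histone of maturing sperm. The fold was 6.49 and 6.26 for PPARα+ERα, 10.99 and 10.94 for PPARα+ERβ and 6.79 and 5.31 with PPARα. Within their lists these peaks ranked by -log10 q at percentiles 69.4 and 64.5 (PPARα+ERα), 92.0 and 90.9 (PPARα+ERβ), and 42.8 and 16.5 (PPARα). Summits fell at 2 places. Both PPARα+ERβ libraries and PPARα library 1 had theirs 1113 bases before the start, and the PPARα+ERα libraries, at 1245 and 1232 bases, and PPARα library 2, at 1234 bases, farther out. The background was between 1.55 and 2.57 times the genome-wide level. H1-8 had a peak in PPARα+ERα library 1, and H2AC25 and H2BC26, a pair far from the main chromosome 1 cluster, shared 1 in PPARα+ERα library 2. H1-10, H4C16 and H2BC12L had none.

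The groups were then set against each other. For PPARα+ERα against PPARα, 1 histone region (H4C3) had peaks in each PPARα+ERα library and was without one in each PPARα library, or 5.56% of the 18, beside 10.5% of all near regions. The reverse held for 4 (H2BC4 with H2AC6, H2BC6, H4C12 and H2BC21), or 22.2%, beside 16.1%. In genes these were 1 and 5 of 74 (1.35 and 6.76%), beside 4.46 and 6.73% of all genes. The PPARα share of histone genes was thus near that of all genes, though near windows were shorter per histone gene. Without PPARα+ERα library 1 and 2 the PPARα+ERα count was 5 and 3 regions, or 8 and 3 genes. With low-background peaks alone the counts of regions were 0 and 1. At a -log10 q of 5 or more the PPARα count was 3 regions and 3 genes.

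For PPARα+ERβ against PPARα, 1 region stood on each side. H3C4 had the PPARα+ERβ peaks and H2BC6 the PPARα peaks, each 5.56% of the 18, beside 2.22 and 4.26% of all near regions, and each 1.35% of the genes, beside 0.931 and 1.83%. The PPARα+ERβ count was 3 regions and 5 genes without PPARα+ERβ library 1, and 2 of each without PPARα library 1. The PPARα count was 2 regions without either PPARα library, with 2 genes without library 1 and 3 without library 2. Both comparisons use the same PPARα libraries. H2BC4 with H2AC6, H4C12 and H2BC21 were the 3 regions with peaks in all 4 PPARα+ERβ and PPARα libraries and in no PPARα+ERα library, or 16.7% of the 18, beside 6.3% of all near regions. At a -log10 q of 5 or more H2BC21 lost its peak in PPARα+ERβ library 1 (4.14), and H2BC4 with H2AC6 lost its peak in PPARα library 2 (3.57).

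For PPARα+ERα against PPARα+ERβ, H4C3 stood on the PPARα+ERα side. The regions of H2BC4 with H2AC6, H3C4, H4C12 and H2BC21 stood on the PPARα+ERβ side. These were 5.56 and 22.2% of the histone regions, beside 9.84 and 10.4% of all near regions, and 1.35 and 6.76% of the genes, beside 4.17 and 4.33%. The PPARα+ERα count was 5 regions and 8 genes without its library 1, and 3 and 3 without its library 2. The PPARα+ERβ genes numbered 9 without PPARα+ERβ library 1. With low-background peaks alone both counts of regions were 0. Of the 9 regions with a PPARα+ERα peak, 7 (77.8%) had none of another group, beside 90.4% of all near regions with a PPARα+ERα peak, and the exceptions were H4C4 and H1-7.

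Local background of the peaks also differed between the groups. Of the histone peaks, 4 of 11 with PPARα+ERα, 12 of 14 with PPARα+ERβ and 9 of 13 with PPARα stood on more than 3 times the genome-wide level. Over whole lists the shares were 25.99 and 23.3% with PPARα+ERα, 78.9 and 75.8% for PPARα+ERβ, and 84.4 and 87.6% for PPARα, so the groups differed in this way over all peaks. The median background of the histone peaks was 2.57, 29.4 and 28.2 times, and the median stack 12, 56 and 44 fragments, in that order. Over a whole list the median stack was 9 and 10 fragments in the PPARα+ERα libraries, 27 and 30 in the PPARα+ERβ libraries and 36 and 51 in the PPARα libraries. The genome-wide level, in fragments expected at a position, was 0.390 and 0.419, 0.585 and 0.709, and 0.588 and 0.677 in the same libraries. The part of local background and of the genome-wide level in the differences between groups was not tested.

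**Figure D3:**
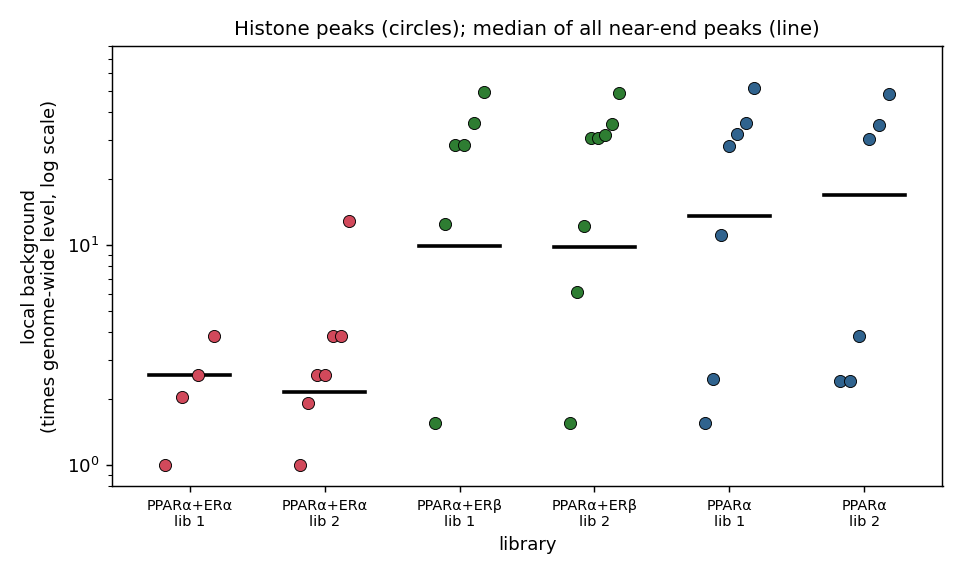
Local background of each near histone peak (circles), as a multiple of the genome-wide level of its library on a log scale, with the median over all near peaks of protein-coding genes as a line. The PPARα+ERα circles lie between 1.0 and 12.8 times, and the other libraries reach from 1.55 to 51.5 times.

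At a given site, background differed little between the libraries that had a peak there. At each of the 8 occupied regions the highest background among libraries was at most 1.65 times the lowest (at H1-7, with its 2 summits), and at H2BC21 it was 1.02 times the lowest. Over all 36065 regions found in 2 or more libraries the median of this ratio was 1.02. Peak edges were shared as well. In all 8 occupied regions a start or an end fell on the same base in 2 or more peaks, as did 88.9% of the 36065 regions. At H2BC21, H4C4 and H4C12 the end was the same base in all 4 peaks, and at H2BC4 with H2AC6 the start was.

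**Figure D4:**
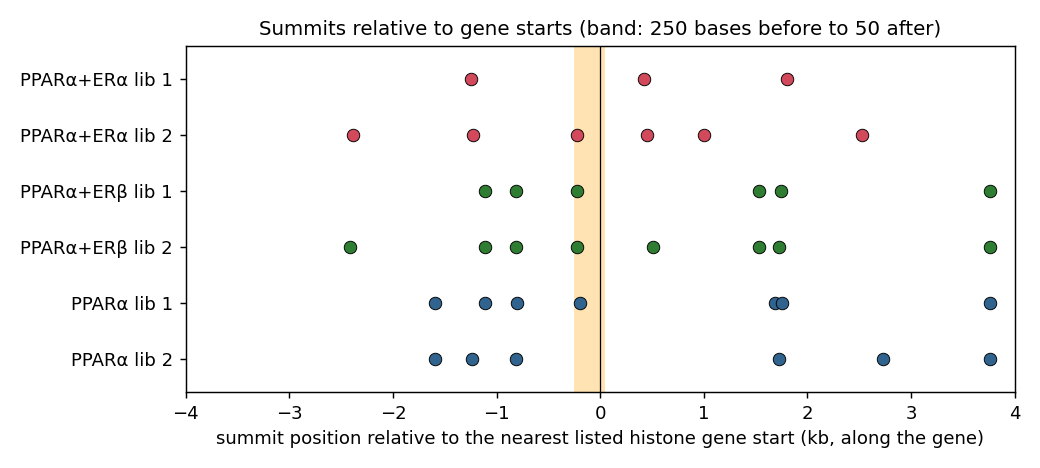
Position of each near summit relative to the nearest listed histone gene start (kb, positive along the gene), by library. The band is the promoter window, in which the summits of H4C4 lie, the points at the right edge are those of H2BC21, and the 2 peaks of H4C3, which has no listed start, are left out.

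Of the 36 summits with a listed start, 11 were within 1 kb of it. Most of the 11 came from H4C4 and H4C12, each a single site with peaks in 4 libraries. The same share was not counted for all near peaks, so no preference for or against starts is read from it. The 3 kb limit also decided some sites. Just inside it were single peaks at H2AC25 (2014 bases), H2BC9 (2264) and H2AC4 (2386). Just outside were a PPARα+ERα library 2 peak at H4C5 (3026), a PPARα library 2 peak at H2AC4 (3069), a PPARα+ERα library 2 peak at H2AC15 (3096), PPARα+ERβ peaks at H2AC16 (3137 and 3141), and a site 3341 bases from an end of H2BC4 with peaks in PPARα+ERα library 1 (fold 2.72), both PPARα+ERβ libraries (2.80 and 3.65) and PPARα library 1 (2.94).

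Genes that act on histone genes or histones were looked up from lists drawn up with earlier results of these data known. Of 26 genes of histone transcription and mRNA processing, 1 was occupied with PPARα+ERα, 2 with PPARα+ERβ and 2 with PPARα, beside 4.71, 5.06 and 7.1% of all protein-coding genes. NPAT was the PPARα+ERα gene (chr11:108225162-108225479), with fold 5.50 and 4.33 and no peak of the other groups in that region. CCNE2, for cyclin E2, had fold 14.5 and 12.8 with PPARα+ERβ and 13.3 and 16.8 with PPARα, and SNRPF, for a core protein of small nuclear RNPs, had 6.34 and 6.78 with PPARα+ERβ and 5.06 and 6.23 with PPARα. SLBP was not occupied in any group.

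Of 20 matched of 21 chaperone genes, 1, 4 and 2 were occupied with PPARα+ERα, PPARα+ERβ and PPARα, beside the same 4.71, 5.06 and 7.1% of all genes. MCM2, a helicase subunit that binds H3 and H4, had PPARα+ERα peaks (fold 9.35 and 11.3). The H3-H4 chaperone genes NASP (2.90 and 3.62) and ASF1A (3.76 and 3.44) had regions occupied with PPARα+ERβ alone. DAXX, a chaperone of H3.3, had 5.19 and 5.02 with PPARα+ERβ and 4.80 and 3.47 with PPARα. RBBP4, a subunit of the assembly factor CAF-1, had a region with 3.70 in PPARα+ERα library 2, 4.29 and 8.30 with PPARα+ERβ and 5.89 and 6.02 with PPARα, and a second region with 5.31 and 5.50 with PPARα+ERβ and 4.55 in PPARα library 2.

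Of 12 matched of 13 replacement variant genes, which are expressed outside DNA synthesis, 1 was occupied with PPARα+ERα, 2 with PPARα+ERβ and 2 with PPARα, again beside 4.71, 5.06 and 7.1% of all genes. Each of these lists is short, and nothing particular to a list is read from its counts. H2AJ, for an H2A variant, had PPARα+ERα peaks (fold 5.00 and 3.37). The centromeric H3 gene CENPA (2.52 and 2.56 with PPARα+ERβ, 3.49 and 4.22 with PPARα) and H2AZ2, for H2A.Z (4.61 and 5.96 with PPARα+ERβ, 5.14 and 4.69 with PPARα), had no PPARα+ERα peak in those regions. A list of 5 symbols for histone genes outside the main clusters matched 3, of which H2AC25 and H2BC26 are also among the 74. Both had a near peak and 0 of the 3 were occupied.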

How the data were processed

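Per the labels' protocols, crosslinked HepG2 chromatin was cut by nuclease and sonication and precipitated with a PPARα antibody. The submitters' processing notes name MACS2 2.2.7.1 beside Bowtie 1.0.1 and Trim Galore 0.6.4, and also DiffBind 2.16, ChIPseeker 1.18.0 and HOMER 4.11, without their roles, and the builds hg38 and GRCh38.p13; the control used is not given in the sources used here. The authors' lists hold 1 called peak per line and library. In the deposited files the fold is a ratio of summit to local background. Each summit has a deposited -log10 p and a -log10 q, and the authors' score equals that -log10 q times 10 without its decimals.

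Fragment numbers and background levels were solved for per peak, given the fold (with 1 added to both) and the -log10 p (a Poisson tail); a whole number returned the deposited value within 0.001 for 100% of peaks. The lowest background of a list was its genome-wide level. Sequencing depth is otherwise unknown. Peaks on chromosomes 1 to 22 overlapping by 1 bp or more were merged into 90086 regions. Gene ends came from a RefSeq table of GRCh38.p14, and starts from its promoter table, which lists 67 of the 74 members. Tables were handled with pandas 2.3.3 in Python 3.11.15, statistics with SciPy 1.17.1 on NumPy 2.4.6, and plots with Matplotlib 3.10.9, and the steps were tested on simulated lists (334 of 334 planted occupied genes found, 0 of 666 others).

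Members and gene lists were chosen with earlier results of these data known. Every member with an occupied region is named; H4C12 and H2BC6 promoters were chosen for display after their values were seen. Among the members, 1 counted in the totals is not reported here by itself. Libraries 1 and 2 follow the order of deposit only. Alternatives changed the q threshold, window, gene end, overlap, list length, local background, member set and library.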

Additional observations from a re-analysis of the deposited data

How the results depend on the processing

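Settings were changed 1 at a time, and values follow the order PPARα+ERα, PPARα+ERβ, PPARα, or libraries 1 and 2 of each. Only the histone counts were redone, so no share of all near regions stands beside them. Joining peaks by 50% overlap or by summits within 500 bp changed no count. At a -log10 q of 5 or more occupied regions were 2, 5 and 4 and genes 2, 6 and 4, the chromosome 1 cluster had 0 occupied regions with PPARα+ERβ, and PPARα not PPARα+ERα had 3 genes. Within 1 kb there were 1, 2 and 1 occupied regions and as many genes, and 2 and 3, 2 and 3, and 2 and 1 peaks. The differing regions there were 1 for PPARα not PPARα+ERα, 0 in either direction between PPARα+ERβ and PPARα, and 1 for PPARα+ERβ not PPARα+ERα. Within 10 kb PPARα+ERβ had 10 occupied regions, genes numbered 5, 22 and 14, and peaks 9 (PPARα+ERα library 1), 11 and 13 (PPARα+ERβ) and 14 (PPARα library 2). The differing regions there were 2 for PPARα+ERα against either other group, 3 for PPARα+ERβ not PPARα and 2 for the reverse. With gene starts alone PPARα+ERα had 1 occupied region, 1 gene and 0 differing regions against either group, since H4C3 has no listed start. The chromosome 1 cluster then had 0 occupied regions with PPARα+ERβ and with PPARα. The same held within 1 kb and with local background of at most 3 times the genome-wide level. With lists of equal length PPARα had 2 occupied regions and 2 genes, with 2 peaks in library 2, and the differing regions were 2 for PPARα not PPARα+ERα, 2 for PPARα+ERβ not PPARα and 0 for the reverse.

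With local background of at most 3 times the genome-wide level there were 1, 1 and 2 occupied regions and genes. Peaks then numbered 4 in PPARα+ERα library 2, 1 and 1 with PPARα+ERβ, and 2 and 2 with PPARα. Of the differing regions, 1 was left for PPARα not PPARα+ERα, and 0 for PPARα+ERα not either group, for PPARα+ERβ not PPARα and for PPARα+ERβ not PPARα+ERα. With cluster genes alone PPARα+ERα had 1 occupied region and gene, and 2 peaks in library 1. Leaving out 1 library made a peak in the other library of its group enough for a call, so these counts could not fall. They were 4 to 7 occupied regions and 4 to 10 genes with PPARα+ERα, and 7 to 11 genes with PPARα+ERβ. The differing regions were then 1 to 5 for PPARα+ERα not PPARα and for PPARα+ERα not PPARα+ERβ, 1 to 3 for PPARα+ERβ not PPARα and 1 to 2 for the reverse. No paired analysis was possible because the library numbers follow the order of deposit only. Every count is small, no test was run, and a missing peak is not a missing signal in any of the lists.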
